A study of Mus musculus with 8 samples.

Results

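The vessel lining was followed through 10 genes that mark or build the endothelium of blood and lymph vessels, Tie1, Tek, Kdr, Flt1, Flt4, Lyve1, Prox1, Pdpn, Pecam1 and Cdh5. Their probes were found by gene name among the non-control probes of the array, which gave 13 of 55681 probes and 10 of 35715 names. In 8 of the 10 genes at least 1 probe was bright enough to be tested, out of 21362 genes tested in all. Among the 8 tested, Tie1 and Lyve1 rose in the doxycycline group, 0 fell, and the VEGF receptors Kdr and Flt1 did not pass the test.

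Ileal RNA of female mice was hybridised to 8 arrays of 1 colour. The doxycycline group (4 samples) had an intraperitoneal injection of doxycycline at 50 µg per g of body weight in 100 µl, and the saline group (4 samples) had 100 µl of 0.9% NaCl. All 8 samples carry the strain label Rosa26rtTA/+, Hprt Myc-Tnk1tg, a tetracycline-switched transgene for the Myc-tagged kinase TNK1 placed at the Hprt locus, and all were taken at 24 h. The series asks what changes in the gut once TNK1 is switched on. The Rosa26 promoter drives the tetracycline switch in most cell types, so a change in vessels need not start in vessels. The sample titles and source names call the saline samples WT although their strain label and the series' design give the same transgenic strain. Which of these labels is right was not tested. No group had doxycycline without the transgene, so the drug and the transgene cannot be told apart. The labels do not say in so many words that each sample is a separate animal, so the p-values cover the spread among samples, which may be technical.

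Endothelial cells line every blood and lymph vessel. Growth factors of the VEGF family act on them through the receptor kinases encoded by Kdr, Flt1 and Flt4, and the angiopoietins act through the kinase encoded by Tek, which works together with its relative encoded by Tie1. In the small intestine blood capillaries take up sugars and amino acids under the epithelium of each villus, and a central lymph vessel, the lacteal, takes up dietary fat. Lyve1, Prox1, Pdpn and Flt4 are commonly used to recognise lymphatic endothelium, while Pecam1 and Cdh5 encode adhesion molecules of the contacts between endothelial cells of both kinds.

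The probes for the paired kinases Tie1 and Tek are shown because they lie on corresponding stretches of related genes and yet only Tie1 was measured on every array. The Lyve1 probe is shown because it carries the other rise. Positions follow the mm9 annotation of the array. The Tie1 probe lies on the minus strand at chr4:118144132-118144191, the Tek probe on the plus strand at chr4:94540624-94540683, and the Lyve1 probe on the minus strand at chr7:117994171-117994230. In the ungapped alignment with the most matches, the Tie1 and Tek probes shared 39 of 57 bases (68.4%), which are in capitals. Of the Lyve1 probe the first 30 bases are given.
Tie1 probe: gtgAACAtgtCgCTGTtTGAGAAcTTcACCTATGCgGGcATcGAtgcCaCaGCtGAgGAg
Tek probe: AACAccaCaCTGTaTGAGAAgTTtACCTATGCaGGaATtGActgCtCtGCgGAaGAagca
Lyve1 probe: cactttgtgtgcctttaacaaatacattat

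The 250 bases upstream of the start of Tie1, which rose, and of Kdr, which did not pass the test, are set side by side. They come from the RefSeq promoter table (GRCm38.p6), in which 7 of the 10 genes were matched with 8 windows. The Tie1 window lies on the minus strand at chr4:118489850-118490099 and the Kdr window on the minus strand at chr5:75978456-75978705. Capitals mark GGAA, the core that ETS factors bind, or its reverse complement TTCC.
Tie1 upstream: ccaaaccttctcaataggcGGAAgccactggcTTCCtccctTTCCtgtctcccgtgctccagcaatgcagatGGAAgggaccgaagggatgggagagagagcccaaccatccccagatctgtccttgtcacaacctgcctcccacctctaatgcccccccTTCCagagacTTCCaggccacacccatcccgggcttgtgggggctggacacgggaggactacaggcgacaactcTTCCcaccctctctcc
Kdr upstream: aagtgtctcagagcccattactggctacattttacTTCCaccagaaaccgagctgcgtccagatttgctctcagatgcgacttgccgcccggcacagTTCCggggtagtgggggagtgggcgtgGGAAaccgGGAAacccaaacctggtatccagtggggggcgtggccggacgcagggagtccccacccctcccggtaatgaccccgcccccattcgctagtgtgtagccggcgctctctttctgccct

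On both strands together, GGAA occurred 7 times upstream of Tie1 and 4 times upstream of Kdr, against a median of 3 over all 32851 windows of this length, of which 93.4% held it. All 8 windows of the vessel genes held it. The longer AGGAAG, which contains GGAA, stood in the windows of Tie1 and Flt1 and in 29.5% of all windows. The GATA motif AGATAA was in none of the 8 windows and in 9.99% of all. The TATA box TATAAA was in the window of Flt1 and in 1 of the windows of Prox1, and in 12.4% of all. A match is a string of letters and not a shown binding site.

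All 8 arrays lie on 1 slide, with the doxycycline samples in row 1 and the saline samples in row 2, so the row cannot be told apart from the treatment. Between 54.8% and 57.0% of probes were well above background on doxycycline arrays, against 39.6% to 43.1% on saline arrays, a difference that touches the dim genes. The lowest level of a probe well above background lay between -4.91 and -4.50 on doxycycline arrays and between -3.07 and -2.57 on saline arrays, as log2 relative to the 75th percentile of the array, the scale of all levels below. The 5′-side Tnk1 probe averaged 0.64 ± 0.23 in doxycycline samples and -2.15 ± 0.40 in saline samples (SD, n = 4 each), and the Tnk1 probe farther along the gene averaged 2.13 ± 0.23 in doxycycline samples and 2.58 ± 0.26 in saline samples. The probe for Hprt, the locus that holds the transgene, averaged 4.34 ± 0.14 in doxycycline samples and -1.67 ± 0.58 in saline samples. Hprt was thus 64.6-fold higher with no overlap (limma adjusted p = 5.55e-05 over all kept probes). Whether the groups share a genotype at this locus was not tested. The ileal bile acid binding protein Fabp6 averaged 9.25 ± 0.26 in doxycycline samples and 9.45 ± 0.21 in saline samples, and Slc10a2 and Vil1 were well above background on all 8 arrays. Saline replicate 3 stood apart in the brush-border lactase Lct, at 3.06, against -5.25 to -3.92 in the other saline samples and -3.66 to -2.57 in doxycycline samples. Without saline replicate 3 the log2 difference was 1.87 for Tie1 and 1.44 for Lyve1.

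Tie1 encodes the orphan partner of the angiopoietin receptor. Its level was -0.23, 0.27, 0.44 and -0.38 in doxycycline replicates 1 to 4, against -1.58, -1.83, -1.49 and -2.12 in saline replicates 1 to 4. Every doxycycline sample lay above every saline sample, and the gap between the groups was wider than the range within either. The means were 0.03 ± 0.39 in doxycycline samples and -1.76 ± 0.28 in saline samples (SD, n = 4 each), a log2 difference of 1.78 (SE 0.23). Tie1 was thus 3.44-fold higher (95% interval 2.40 to 4.95, limma adjusted p = 0.00209 over all 21362 genes). Before scaling, its processed intensity was 202, 382, 474 and 231 in doxycycline samples and 100.4, 79.7, 93.4 and 43.2 in saline samples. In a bulk sample more endothelial cells and more RNA per cell cannot be told apart, here and for every gene below.

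Tek encodes the angiopoietin receptor itself. Its single probe read -4.42, -3.23, -4.05 and -4.26 in doxycycline samples and -5.34, -4.84, -4.01 and -3.63 in saline samples. It was well above background on 3 doxycycline arrays and on 0 saline arrays, so it was not tested, and the groups overlapped. No fold is given, because the doxycycline mean lies under the level at which saline arrays begin to resolve a probe.

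**Figure D1:**
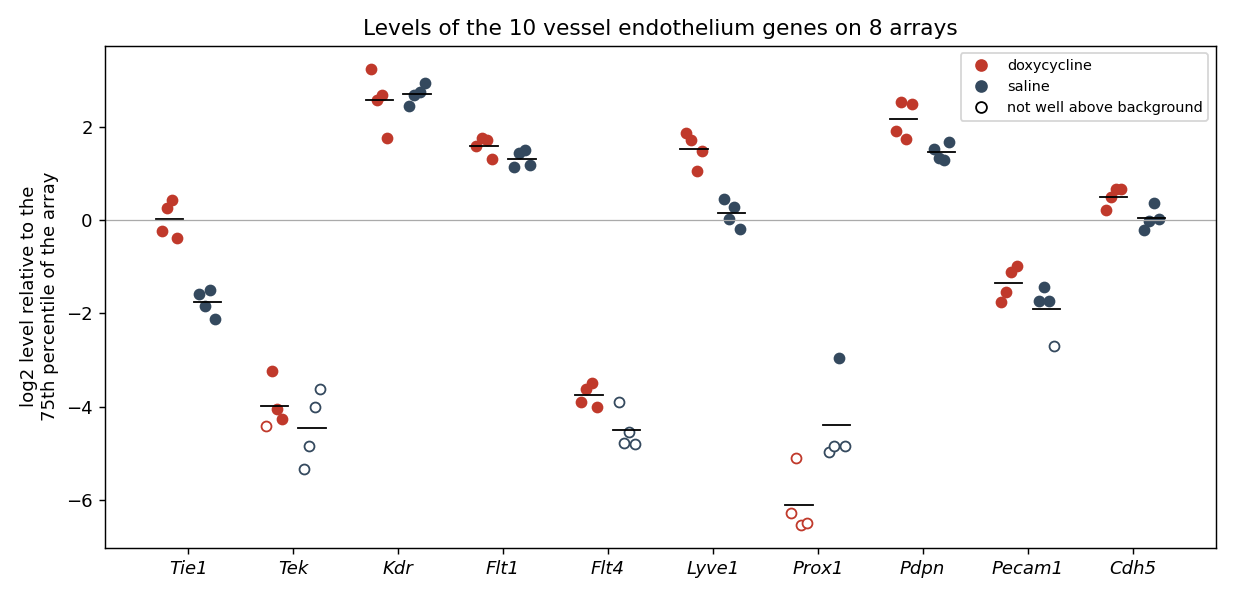
Log2 levels relative to the 75th percentile of each array for the 10 genes (x axis), with 1 point per sample, doxycycline samples left of saline samples, and a bar at each group mean. Open points were not well above background, and Tek, Flt4 and Prox1 are dim throughout. The groups of Tie1, Lyve1 and Pdpn are apart, with doxycycline samples above saline samples, and those of Prox1 lie apart the other way at background level. Levels of different genes come from different probes and are not compared.

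Kdr encodes the main signalling receptor for VEGF-A. Its brighter probe read 3.26, 2.58, 2.70 and 1.77 in doxycycline samples and 2.45, 2.70, 2.75 and 2.94 in saline samples. Doxycycline samples held both the highest and the lowest value, replicates 1 and 4. The log2 difference was -0.14 (95% interval -0.80 to 0.52, adjusted p = 0.785), an interval that leaves room for a change in either direction but not for one as large as that of Tie1. The second Kdr probe, printed in several copies on the array, gave a log2 difference of -0.15 (adjusted p = 0.647 over all kept probes).

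Flt1 encodes a VEGF receptor that also acts as a decoy. It read 1.60, 1.77, 1.73 and 1.32 in doxycycline samples and 1.15, 1.45, 1.50 and 1.20 in saline samples. The groups overlapped, and the log2 difference of 0.28 (95% interval -0.09 to 0.65) missed the threshold (adjusted p = 0.276). A second probe named Flt1, on a cDNA clone, was not well above background on any array.

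Flt4 encodes the receptor for VEGF-C and VEGF-D that lymphatic endothelium depends on. It read -3.91, -3.62, -3.48 and -4.01 in doxycycline samples and -3.90, -4.79, -4.55 and -4.81 in saline samples. It was well above background on 4 doxycycline arrays and on 0 saline arrays. Flt4 was thus tested only through the group in which it is brighter. The log2 difference of 0.76 missed the threshold (adjusted p = 0.0635), was 0.05 with normexp background and 0 with the common floor, and no fold is given because the doxycycline mean lies under the lowest resolved level of the saline arrays.

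Lyve1 encodes a hyaluronan receptor of lymphatic endothelium and of some tissue macrophages. Its level was 1.88, 1.73, 1.05 and 1.50 in doxycycline replicates 1 to 4, against 0.45, 0.04, 0.29 and -0.19 in saline replicates 1 to 4. The lowest doxycycline sample, replicate 3, was above the highest saline sample, replicate 1. The means were 1.54 ± 0.36 in doxycycline samples and 0.15 ± 0.28 in saline samples (SD, n = 4 each). Lyve1 was 2.63-fold higher (95% interval 1.85 to 3.73, log2 difference 1.39, SE 0.22, adjusted p = 0.00547).

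Macrophage markers moved in the same samples, in both directions. Of 12 tested, 3 rose (25.0%) and 1 fell (8.33%), against 5.94% and 7.9% of all genes tested. Their summed linear level ranged from 45.9 to 75.2 in doxycycline samples and from 25.9 to 46.1 in saline samples. Mrc1, the mannose receptor of resident macrophages, was 2.06-fold higher (adjusted p = 0.00582), C1qb was 2.26-fold higher (adjusted p = 0.033) and C1qc 1.80-fold higher (adjusted p = 0.0361). Adgre1, which encodes the F4/80 antigen, was 1.93-fold lower (adjusted p = 0.0253). Mrc1, C1qa, C1qb and C1qc had no overlap between groups with doxycycline samples higher, against 8.8% of genes without missing values. Adgre1 had none with doxycycline samples lower, against 13.1%. The count of 3 that rose was 1 without doxycycline replicate 2, 3 or 4 or saline replicate 1 or 3, and 5 without saline replicate 2. The part of macrophages in the Lyve1 rise was not tested.

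Pdpn encodes podoplanin, a surface glycoprotein of lymphatic endothelium and of fibroblastic stroma. Its brighter probe read 1.91, 2.54, 1.75 and 2.50 in doxycycline samples and 1.53, 1.34, 1.29 and 1.67 in saline samples. All doxycycline samples lay above all saline samples, yet the log2 difference of 0.72 (SE 0.22) missed the threshold (adjusted p = 0.0583). It passed in 7 of 20 processing settings, with log2 differences between 0.60 and 0.90 over all of them. The dimmer Pdpn probe was well above background on 4 doxycycline arrays and 0 saline arrays, so it was kept only through the doxycycline arrays. Its log2 difference of 1.08 (adjusted p = 0.0268 over all kept probes) has no fold and does not bear on the brighter probe.

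Prox1 encodes the transcription factor that sets lymphatic identity. Its probe read -6.29, -5.10, -6.54 and -6.50 in doxycycline samples and -4.97, -4.85, -2.96 and -4.85 in saline samples. It was well above background on 0 doxycycline arrays and 1 saline array, that of replicate 3, and was not tested. All doxycycline samples lay below all saline samples, but apart from saline replicate 3 the values are below what the arrays resolve, and the lowest processed intensity of any spot was 2.01 to 2.38 on doxycycline arrays and 6.23 to 9.21 on saline arrays. No fold is given. Of the lymphatic markers among the 10 genes, Lyve1 and the brighter Pdpn probe were well above background on all 8 arrays.

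Pecam1 and Cdh5 encode CD31 and VE-cadherin, which hold endothelial cells together. Pecam1 read -1.74, -1.53, -1.11 and -0.99 in doxycycline samples and -1.74, -1.44, -1.73 and -2.70 in saline samples, and the probe was well above background on 3 of the 4 saline arrays. Cdh5 read 0.22, 0.50, 0.67 and 0.66 in doxycycline samples and -0.21, -0.01, 0.37 and 0.02 in saline samples. In both genes the groups overlapped, in Cdh5 through doxycycline replicate 1 and saline replicate 3. The log2 difference was 0.56 (95% interval -0.11 to 1.22, adjusted p = 0.229) for Pecam1 and 0.47 (95% interval 0.06 to 0.87, adjusted p = 0.114) for Cdh5. Neither passed in any setting tried.

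Of the 8 vessel genes tested, 2 rose (25.0%) and 0 fell, against 1268 of 21362 genes higher (5.94%) and 1687 lower (7.9%). In 3 of the 8 the groups did not overlap with doxycycline samples higher, against 8.8% of genes without missing values, and in 0 with doxycycline samples lower, against 13.1%. The median log2 difference was 0.64 over the 8 genes and 0.02 over all genes tested. Without Flt4, which saline arrays did not resolve, 2 of 7 rose (28.6%) and the median was 0.56. Over the 19133 genes resolved on at least 1 array of each group, 4.86% rose and the median was -0.03. With 8 genes these shares are coarse. The genes were also chosen with earlier results of these data known, so the shares are a description only. Tek and Prox1 had no part in them.

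Setting each gene against Cdh5 on the same array asks whether it differed by another amount than this general endothelial gene. Tie1 minus Cdh5 was -0.44, -0.23, -0.23 and -1.04 in doxycycline samples and -1.38, -1.82, -1.86 and -2.14 in saline samples. The groups stayed apart, and Tie1 rose by 1.32 more than Cdh5 on the log2 scale (SE 0.27, adjusted p = 0.00802). Tie1 was thus 1 of 7 genes higher relative to Cdh5, against 2.17% of all genes, and 0 of 7 were lower, against 20.6%. Cdh5 itself was 0.47 higher in doxycycline samples, so subtracting it lowered the difference of every gene by that amount. Without the subtraction 5.94% of all genes were higher and 7.9% lower, so the 0 of 7 is not read as a result. With Pecam1 as the gene subtracted, the Tie1 difference was 1.23 and missed the threshold (adjusted p = 0.0648).

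Lyve1 minus Cdh5 differed by 0.93 (SE 0.32) between doxycycline and saline samples on the log2 scale, with overlapping groups (adjusted p = 0.0531). It passed without doxycycline replicate 3 (1.14, adjusted p = 0.0441). Kdr minus Cdh5 differed by -0.60 (adjusted p = 0.226), and without doxycycline replicate 1, the highest Kdr sample, by -0.93 (adjusted p = 0.0358). Flt1, Flt4, Pdpn and Pecam1 differed from Cdh5 by -0.18 to 0.29, with adjusted p between 0.496 and 0.841.

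**Figure D2:**
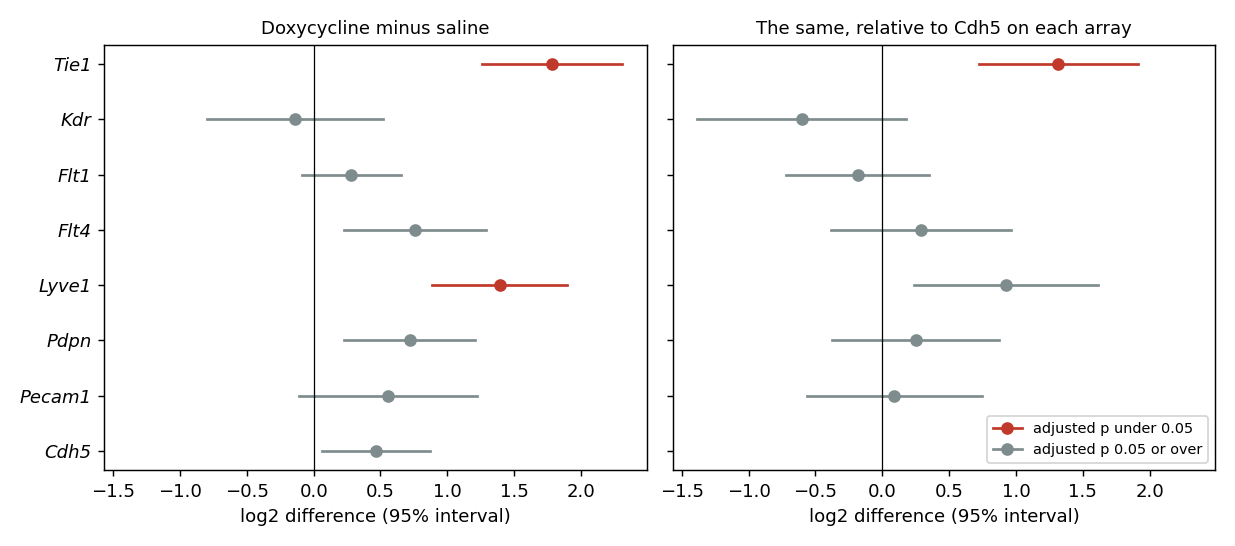
Log2 differences, doxycycline minus saline, with 95% intervals for the 8 genes tested, as measured (left) and after Cdh5 of the same array was subtracted (right). Red marks an adjusted p under 0.05. Tie1 (1.78 and 1.32) is the gene marked in both panels, and Lyve1 (1.39) is marked in the left panel.

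After each group's mean was taken off, Pearson's r with Cdh5 over the 8 arrays ran from -0.46 for Lyve1 to 0.36 for Pecam1, as a description only, since the arrays share a slide. Between the other pairs it ran from -0.60 (Kdr with Pecam1) to 0.72 (Tie1 with Flt4), with 0.67 for Tie1 with Flt1 and 0.51 for Kdr with Flt1. The tested genes most like Cdh5 by this measure were Gbe1 (r = 0.96), St3gal3 (0.95), Nvl (0.95), Ctrb1 (0.95) and an intergenic probe (0.94). None of the 5 is a vessel gene of the lists used here.

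Processing left the calls of Tie1 and Lyve1 in place. Over 20 settings, including each array left out in turn, the log2 difference stayed between 1.28 and 1.92 for Tie1 (highest adjusted p 0.0213) and between 1.14 and 1.56 for Lyve1 (highest adjusted p 0.0397). Flt1, Kdr, Pecam1 and Cdh5 passed in 0 settings. Flt4 passed in 2 of its 19 settings, with log2 differences between 0 and 1.32, the 0 coming from the common floor.

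**Figure D3:**
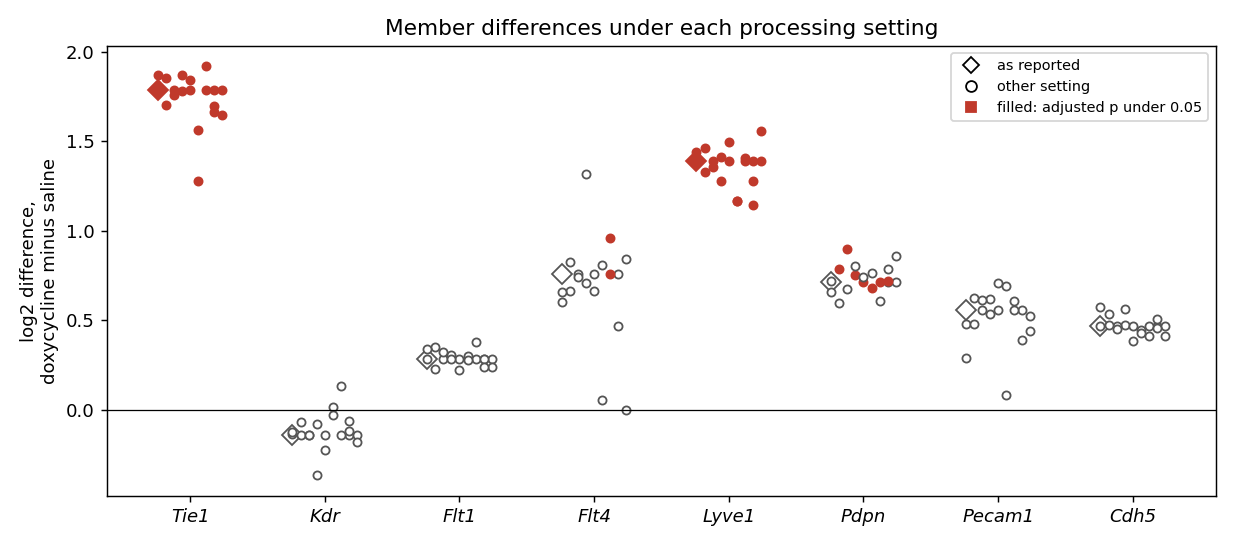
Log2 difference, doxycycline minus saline, of each of the 8 genes tested (x axis) under every processing setting. The diamond is the value as reported, circles are other settings and filled marks have an adjusted p under 0.05. All marks of Tie1 and Lyve1 are filled, none of Kdr, Flt1, Pecam1 and Cdh5 is, and Flt4 spreads from 0 to 1.32.

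Of 15 tested genes of VEGF, angiopoietin and other secreted vessel factors, 0 rose and 1 fell (6.67%). Over all genes tested 5.94% rose and 7.9% fell, the background for every list count here, so 1 of 15 is near it. The differences ran between -0.87 and 0.94, with a median of 0.15 on the log2 scale. Over the 13 resolved on at least 1 array of each group the median was -0.06. Without doxycycline replicate 1, 2 were higher, and without saline replicate 2, 1 was. Pdgfb, by which endothelium recruits pericytes, read 0.36, 0.60, 0.36 and 0.12 in doxycycline samples and 0.81, 0.84, 1.02 and 0.90 in saline samples, and was 1.45-fold lower (adjusted p = 0.0486). Vegfb (log2 difference -0.52, adjusted p = 0.0507), Apln (-0.87, adjusted p = 0.0775) and the vessel-relaxing peptide adrenomedullin, Adm (0.94, adjusted p = 0.0718), missed the threshold. Vegfa, Vegfc and Angpt2 differed by 0.22, -0.25 and 0.20. The Pdgfb call was lost when any 1 array other than that of doxycycline replicate 2 was left out, with a highest adjusted p of 0.136.

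Receptor partners and signal modulators rose in 4 of 19 tested genes (21.05%) and fell in 0, with a median of 0.32. S1pr1, the sphingosine-1-phosphate receptor of endothelium and lymphocytes, was 3.23-fold higher (adjusted p = 0.0299), and the chemokine receptor Cxcr4 was 5.09-fold higher (adjusted p = 0.0499, passing in 8 of 19 settings). In both, saline replicate 2 lay inside the doxycycline range, at 0.45 for S1pr1 and 0.07 for Cxcr4, while the other saline samples lay between -1.42 and -1.07 and between -3.03 and -2.43. Without saline replicate 2 the log2 difference was 3.04 for Cxcr4 and 2.12 for S1pr1, against 2.35 and 1.69 with it. The scavenging receptor Ackr3 was 2.04-fold higher (adjusted p = 0.0376) and endoglin, Eng, a TGF-beta co-receptor of endothelium, was 1.50-fold higher (adjusted p = 0.0492). Ptprb, the phosphatase that restrains Tek, had a log2 difference of 0.70 (adjusted p = 0.0669). The count of 4 fell to 0 without doxycycline replicate 2, 3 or 4 or saline replicate 1, 3 or 4, and was 2 without saline replicate 2.

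Of 37 tested further genes of endothelium in general, 9 passed higher (24.3%) and 0 lower, with a median of 0.37. Of the 37 differences 24 were above 0. The groups did not overlap in 11 with doxycycline samples higher, against 8.8% of genes without missing values. They did not overlap in 2 with doxycycline samples lower, against 13.1%. Those 2 were Cldn5 (log2 difference -0.69, adjusted p = 0.0763) and Cd34 (-0.33, adjusted p = 0.182). Emcn (0.41) and Egfl7 (0.11) missed the threshold with overlapping groups. Over the 32 resolved on at least 1 array of each group 7 rose, with a median of 0.32. Ly6c1, a surface protein of capillary endothelium and of monocytes, read 8.04, 8.10, 7.48 and 7.23 in doxycycline samples and 5.32, 4.56, 5.13 and 5.75 in saline samples. It was 5.75-fold higher with no overlap (adjusted p = 0.00128). Ctla2a was 2.91-fold higher (adjusted p = 0.00251), the endothelial motility gene Ecscr 2.70-fold higher (adjusted p = 0.00362) and the small GTPase gene Rhoj 2.07-fold higher (adjusted p = 0.00895), each with every doxycycline sample above every saline sample. These 4 passed in all 20 settings.

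Rasip1 (1.58-fold higher), Adgrf5 (2.37-fold higher), Esam, Adgrl4 and Tal1 made up the rest of the 9. Esam, an adhesion molecule of endothelial tight junctions, was 1.58-fold higher (adjusted p = 0.0276). Adgrl4 and Tal1 were well above background on 0 saline arrays, so they were kept only through the doxycycline arrays. Both passed the test (adjusted p = 0.0184 and 0.0423). Their bounds, at least 1.32-fold and at least 1.08-fold higher, rest on each array's own lowest resolved level. The doxycycline mean of Tal1, -2.70, lies under that level of saline replicates 2 and 4, -2.61 and -2.57. The summed linear level of the 37 genes ranged from 293 to 478 in doxycycline samples and from 187 to 338 in saline samples. Ly6c1 alone made up 150.3 to 274 of it in doxycycline samples and 23.5 to 53.9 in saline samples. Without Ly6c1 the sum of the other 36 genes overlapped between groups, at 141 to 261 in doxycycline samples and 157 to 303 in saline samples. Esam passed in 13 of 20 settings. The count of 9 was 4 without doxycycline replicate 3, 5 without doxycycline replicate 4, 5 without saline replicate 1 and 5 without saline replicates 2 and 4 together.

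Of 16 tested lymphatic genes beyond the 10, 6 passed higher (37.5%) and 1 lower (6.25%), with a median of 0.46. Over the 15 resolved on at least 1 array of each group 5 rose, with a median of 0.32. The summed linear level did not follow the counts, at 54.2 to 62.3 in doxycycline samples and 58.8 to 66.1 in saline samples. Ackr2, a chemokine scavenger of lymphatic endothelium, read -0.16, -0.02, -0.66 and -0.53 in doxycycline samples and -1.87, -1.21, -2.08 and -1.72 in saline samples, and was 2.60-fold higher (adjusted p = 0.0065). Mmrn1, a multimerin secreted by lymphatic endothelium, was 1.78-fold higher (adjusted p = 0.0127) and the valve factor Nfatc1 1.61-fold higher (adjusted p = 0.0339). Piezo1, a force-gated channel, was 1.82-fold higher (adjusted p = 0.0397). Ackr2 and Mmrn1 passed in all 20 settings and Nfatc1 in 11.

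Stab2, a hyaluronan scavenger receptor, read 0.02, -0.86, -1.63 and -0.90 in doxycycline samples and -2.89, -1.39, -2.84 and -3.16 in saline samples (adjusted p = 0.0346). Only saline replicate 2 resolved it, at a level inside the doxycycline range, and no fold is given. Gata2 passed the test (adjusted p = 0.0346) with 0 saline arrays well above background and no fold. Nts, which is used to mark collecting lymphatic vessels but in the ileum is also the hormone neurotensin of enteroendocrine cells, was 3.27-fold lower (adjusted p = 0.0152). Leaving out saline replicates 2 and 4 together ended the Nts call (adjusted p = 0.0594). Enteroendocrine markers fell in 3 of 8 tested (37.5%) and rose in 0. Their summed level ranged from 9.58 to 15.7 in doxycycline samples and from 21.9 to 33.7 in saline samples. Without doxycycline replicate 2 the enteroendocrine count was 5. The part of these cells in the Nts value was not tested. Reln and Foxc2 did not pass the filter, and no probe was found under the name Ccl21a. The count of 6 was 2 without doxycycline replicate 1 or 2 or saline replicate 1 or 3, 3 without doxycycline replicate 4 or saline replicate 4, and 3 without saline replicates 2 and 4 together.

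Of 19 tested genes of vessel activation and leukocyte adhesion, 6 passed higher (31.6%) and 0 lower, with a median of 1.18. Saline arrays did not resolve Edn1, Selp or Ptgs2, and over the 16 genes resolved on at least 1 array of each group 4 rose, with a median of 1.22. The summed linear level overlapped, at 70.0 to 111.7 in doxycycline samples and 82.6 to 102.9 in saline samples. Edn1, the vessel-constricting peptide endothelin 1, read -1.28, -0.74, -0.95 and -0.62 in doxycycline samples and -3.35, -3.80, -4.37 and -4.20 in saline samples. It was well above background on 4 doxycycline and 0 saline arrays, and was at least 3.81-fold higher (adjusted p = 0.0004). That bound holds only for the scanner software's background with each array's own lowest resolved level. The log2 difference of Edn1 was 1.19 with normexp background and 1.67 with the common floor, both less than the bound. Plat, the tissue plasminogen activator, read 0.90, 1.08, 1.65 and 1.35 in doxycycline samples and -1.16, -0.75, -1.83 and -1.66 in saline samples, and was 6.05-fold higher (adjusted p = 0.000807). Edn1 passed in all 19 of its settings and Plat in all 20.

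Hif1a, the oxygen-sensitive transcription factor gene, was 3.06-fold higher (adjusted p = 0.0106), haem oxygenase Hmox1 2.69-fold higher (adjusted p = 0.0136) and the leukocyte adhesion molecule Vcam1 3.44-fold higher (adjusted p = 0.0188). Selp, the P-selectin of activated endothelium, passed the test (adjusted p = 0.00926) but was well above background on 0 saline arrays, has no fold, and differed by -0.03 on the log2 scale with normexp background and by 0 with the common floor. Several of these genes are also made by epithelium, macrophages and stroma. Of 11 leukocyte markers tested 2 passed higher (18.2%) and 0 lower. Their summed level was 60.8 to 93.5 in doxycycline samples and 33.2 to 89.3 in saline samples. That count of 2 was 0 without doxycycline replicate 3 or 4 or saline replicate 1, 3 or 4, it was 1 without doxycycline replicate 2 and 6 without saline replicate 2, and S100a8, 1 of the pair, was resolved on 0 saline arrays. The part of these other cells in the values was not tested.

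Of 15 tested endothelial Notch and arterial-venous genes, 0 rose and 1 fell (6.67%, against 7.9% of all genes tested), with a median of -0.24. Gja5, the connexin 40 gene of arterial endothelium, read 0.53, 0.22, -0.19 and -0.34 in doxycycline samples and 2.20, 2.33, 2.55 and 2.30 in saline samples, and was 4.90-fold lower with no overlap (adjusted p = 0.00054), a call kept in all 20 settings. Hes1 had a log2 difference of -2.71 with a wide spread among doxycycline samples, from -4.61 to -0.40, against 0.51 to 0.70 in saline samples (adjusted p = 0.0571). Notch4 (0.64, adjusted p = 0.0583) and Ephb4 (-0.78, adjusted p = 0.0644) missed the threshold with groups that did not overlap. Of the 15 differences 6 were above 0, among them Gja4 (0.44, adjusted p = 0.169) and Efnb2 (0.32, adjusted p = 0.261). The part of cells other than endothelium in these values was not tested. The count of 1 was 3 without doxycycline replicate 1 or saline replicate 2, and 2 without doxycycline replicate 2 or saline replicate 4.

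Among 19 tested partners of the junction molecules 2 rose (10.5%, against 5.94% of all genes tested) and 0 fell, with a median of 0.07. These were Esam, given above, and the angiomotin relative Amotl2, 1.72-fold higher (adjusted p = 0.0279). Ctnnd1, the p120 catenin gene, had a log2 difference of -0.49 (adjusted p = 0.0706). Many of these partners are shared with epithelial junctions. The count of 2 was 0 without doxycycline replicate 2 or 3 or saline replicate 1, and 1 without doxycycline replicate 4 or saline replicate 2 or 3.

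**Figure D4:**
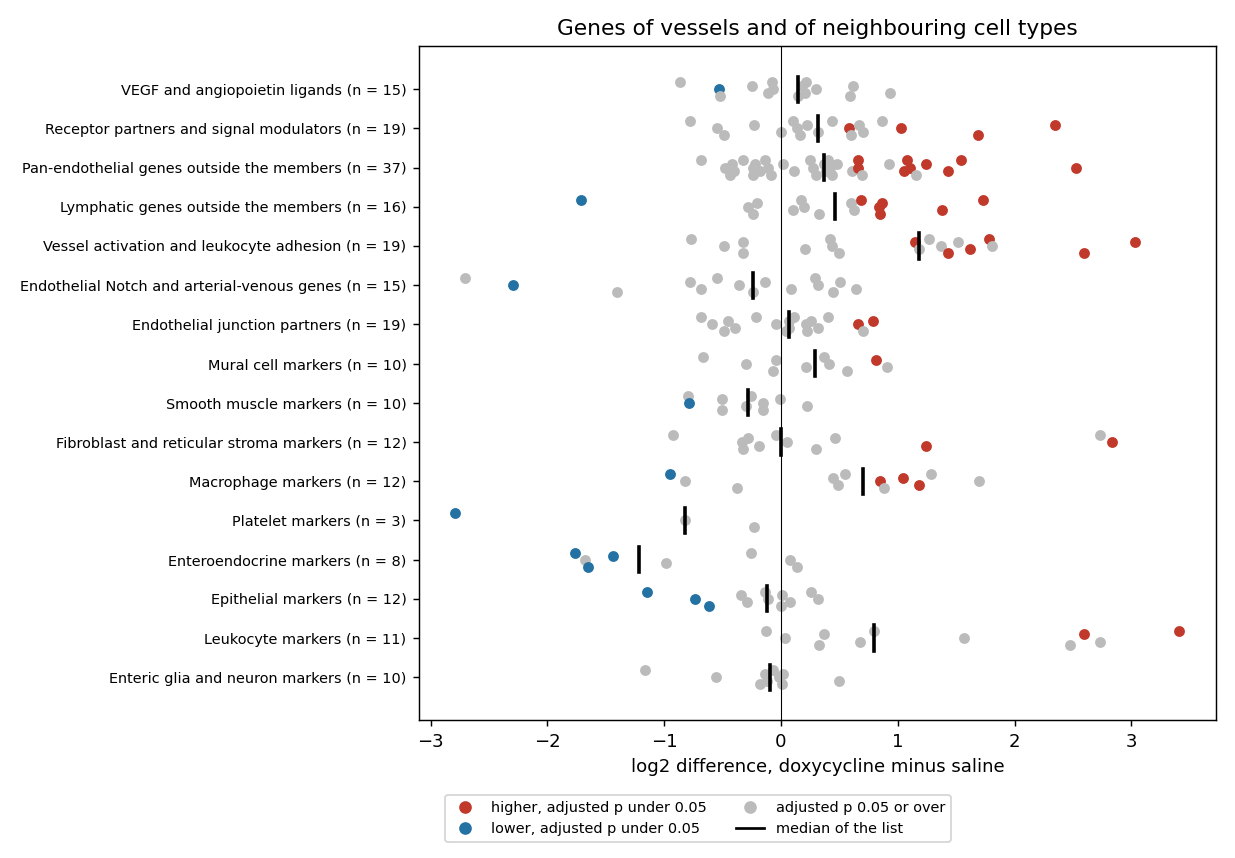
Log2 differences, doxycycline minus saline (x axis), of the tested genes of 16 lists (rows), with 1 point per gene and a black bar at each list's median. Red and blue mark genes with an adjusted p under 0.05. Red points made up 24.3% of the general endothelial genes, 37.5% of the lymphatic genes and 31.6% of the activation genes. They made up 25.0% of macrophage markers, 21.05% of receptor partners and modulators and 18.2% of leukocyte markers. Of all genes tested 5.94% were higher. Gja5 and Nts are blue points of the vessel lists at -2.29 and -1.71.

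Markers of the neighbouring cell types give the setting. Mural cell markers rose in 1 of 10 and fell in 0, with a summed level of 26.7 to 40.3 in doxycycline samples and 29.8 to 58.0 in saline samples. Smooth muscle markers rose in 0 of 10 and fell in 1, fibroblast and stroma markers rose in 2 of 12 and fell in 0, and markers of enteric glia and neurons changed in 0 of 10. Epithelial markers fell in 3 of 12 and rose in 0, with a summed level of 1875 to 2463 in doxycycline samples and 2215 to 2384 in saline samples. Platelet markers fell in 1 of 3 tested, and 5 of 8 did not pass the filter. With each array left out in turn, the fibroblast count higher ran from 0 (without doxycycline replicate 4 or saline replicate 3) to 3 (without saline replicate 2), and the epithelial count lower was 1 without doxycycline replicate 3 or 4 or saline replicate 3. The smooth muscle count lower was 2 without saline replicate 2 and 0 without any other array, and the platelet count lower was 2 without saline replicate 4 and 0 without doxycycline replicate 4 or saline replicate 3. The mural count higher was 0 unless the array left out was that of doxycycline replicate 3 or saline replicate 4. Without saline replicate 2, 1 marker of glia and neurons was lower. The part of cell makeup in the Tie1 and Lyve1 differences was not tested.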

How the data were processed

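The deposited scanner files hold spot intensity, background-subtracted per the file headers, from Agilent Feature Extraction 10.7.3.1, per the submitters' processing notes. The deposited value table holds log2 values and served as an alternative. Control spots and outlier spots were left out and the log2 processed intensity was reduced by each array's 75th percentile. Probes well above background on at least 4 of 8 arrays were kept, and the brightest stood for its gene. No spot was saturated. The number of arrays limits the precision. The comparison used limma 3.58.1 under R 4.3.3 (two-sided, Benjamini-Hochberg over all genes tested, threshold 0.05), tested on simulated data. A gene that no array of a group resolves above background is given as at least N-fold, the bright group's mean against, per array, the higher of its own signal and the lowest signal well above background; no fold is given where this is under 1. All 10 genes are named, and from each vessel list up to 4 tested genes with the smallest p. Further genes named complete a count or were chosen after their values were seen. The genes and the lists were chosen with earlier results of these data known. Alternatives were normexp, quantile, other percentiles, floors, filters and probes, array weights, left-out arrays and a replicate block.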

Additional observations from a re-analysis of the deposited data

Results flagged for a closer look

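Among 90 groups of 4 samples checked for a sample far from the others, 7 had a gap to the nearest sample, as a share of the group's range, above Dixon's critical value, and chance gives about 1 in 20. In doxycycline samples these were Vegfb, where replicate 2 was highest (0.837), Mmrn1, where replicate 4 was highest (0.858), and Esam, where replicate 2 was highest (0.854). In saline samples they were Adm, where replicate 2 was highest (0.944), Fabp6, where replicate 4 was highest (0.921), and Lct, where replicate 3 was highest (0.839). Among the 10 vessel genes it was Prox1 in saline samples, where replicate 3 was highest (0.94), the single array on which that probe was well above background.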

How the results depend on the processing

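The counts over all genes moved with several choices, and those of the 10 vessel genes less. The number of genes higher with doxycycline was 787 with the replicate block and 2929 with array weights, and it ran from 648 to 1541 when each array was left out in turn. The number lower was 905 with the replicate block, 3400 with array weights, 11809 with no filter on dim probes and 1027 without saline replicates 2 and 4, and it ran from 729 to 1870 over the left-out arrays. With no filter, 4 vessel genes were higher (Flt4 and Pdpn added) and 1 was lower, Prox1 at -1.70, which rests on values below background. Otherwise 2 or 3 were higher and 0 lower. Relative to Cdh5, 0 genes were higher with Pecam1 in its place and 2 with the replicate block, and the left-out arrays gave 1 to 2 higher and 0 to 1 lower. Replicate numbers did not pair the samples (r of same-numbered deviations -0.04 to 0.11), so the paired fit is no better estimate. Kdr turned to 0.0173 with normexp background and 0.13 without doxycycline replicate 4 (range over left-out arrays -0.36 to 0.13), Pecam1 minus Cdh5 to -0.17 without saline replicate 4 (range to 0.26), and Selp to -0.025 with normexp background. The cause was not tested. Signal over background limits Prox1, which 0 doxycycline arrays and 1 saline array resolve. It also limits Tek, Flt4, the dimmer Pdpn probe, Selp, Edn1, Adgrl4, Tal1, Gata2, Ptgs2 and S100a8, which 0 saline arrays resolve.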
